A study of Mus musculus with 12 samples.

Results

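The comparison described here is that of CD8 T cells from Pmel-1 mice expanded with dichloroacetate (DCA) against cells of the same mice expanded without it. It used the 6 libraries that the labels assign to experiment 2, of 12 libraries in the series, and it covered every gene expressed in them. All 3 mice, and so the untreated cells too, carried the transgene Tg(TcraTcrb)8Rest and the Thy1a allele (strain label B6.Cg-Thy1a/Cy). The transgene gives the T cells 1 receptor, which recognises a peptide of the melanocyte protein gp100. Whole spleens were stimulated with 1 uM gp100 for 24 hours. The cells were then expanded for 6 days in RPMI with 10% FBS and 50 ug/mL IL-2 (as labelled), and sorted for CD8 on day 7. The DCA group received 5 mM DCA during the expansion and the untreated group did not. From every mouse came 1 library of each kind, which made 3 libraries a group and a comparison within mice. Other spleen cells were present in the cultures until the sort. The labels give no age of the mice, name no vehicle, and mention technical batches of samples without saying which library was in which.

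DCA inhibits the pyruvate dehydrogenase kinases. These kinases phosphorylate and switch off pyruvate dehydrogenase, the mitochondrial enzyme that turns pyruvate into acetyl-CoA. An activated CD8 T cell exports much of its pyruvate as lactate, and over days of culture with IL-2 it passes from a stem-like state, with transcription factors such as TCF1 and receptors for homing to lymph nodes, towards an effector state with granzymes and Fas ligand. The title of the series places the comparison in the redirection of glucose use while T cells are grown for cancer therapy.

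Library totals ran from 29071483 to 34553269 counts. The labelled cell type was checked first. Trbv14, the beta chain segment of the Pmel-1 receptor, stood at 2630, 2680 and 2930 CPM (counts scaled to a common library size with TMM factors) in the untreated libraries of mice 1, 2 and 3, and at 1930, 2120 and 2070 CPM in the DCA libraries, while Cd4 did not exceed 0.452 CPM in any library. Ms4a1, Csf1r, Adgre1 and Ncr1, which define B cells, macrophages and NK cells, had at most 3 counts in any library. Of 13 B cell markers 10 were under 1 CPM in every library. The summed CPM of the 13 was 405 to 515 in untreated and 485 to 578 in DCA libraries and came mainly from Ighm. Of 21 markers of monocytes, macrophages and dendritic cells 16 were under 1 CPM in every library, and most of their summed level (240 to 341 CPM untreated, 336 to 380 CPM with DCA) was H2-Ab1. Of the 5 markers of this list with enough counts to be tested, 3 were called higher with DCA (H2-Ab1, H2-Eb1 and Cd74, all of MHC class II presentation) and 0 lower, and of the 3 such B cell markers 2 (Cd79b and Ighd) were called higher. The H2-Ab1 call (adjusted p = 0.028) was lost without the term for mouse (0.107) and without mouse 1 (0.192) or 2 (0.191). Untreated libraries held more detected genes (24459 to 26569 after thinning all libraries to 29071483 counts) than DCA libraries (23123 to 24093). Ribosomal protein genes took 5.79% to 6.13% of counts in untreated and 6.46% to 6.74% in DCA libraries. Both measures had the same sign in 3 of 3 mice (exact two-sided sign-change test, p = 0.25, the smallest that 3 pairs allow), and their part in the results below was not tested. On the first principal component of log2 CPM, with 39.4% of the variance, the untreated libraries lay between -44.9 and -20.9 and the DCA libraries between 32.8 and 34.8.

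Of 14826 genes tested, 1686 (11.4%) passed an adjusted p of 0.05 in edgeR's quasi-likelihood test with a term per mouse. Of these, 984 (6.64% of the genes tested) were higher and 702 (4.73%) were lower with DCA, and such genes are said below to be called. The higher calls were the larger changes: 360 (2.43% of the genes tested) were higher by at least 1 on the log2 scale, and 72 (0.486%) lower by as much. All 984 higher calls and 701 of 702 lower calls had the same sign in the 3 mice, a condition that 7102 of all 14826 tested genes met. With 1 mouse left out, the calls numbered 662 (without mouse 1), 434 (without mouse 2) and 1230 (without mouse 3), and none of the 1686 changed sign. That is no separate check, since a gene with the same sign in 3 mice can hardly turn when 1 of them is left out. The median log2 fold change of all tested genes was 0.02. For reading the list counts below, the higher and lower calls were 6.39% and 3.7% of the genes tested under cyclic loess scaling, 6.04% and 4.51% without the term for mouse, and 7.38% and 6.89% with DESeq2. They were 3.2% and 1.19% without mouse 1, 1.88% and 0.981% without mouse 2, and 4.55% and 3.66% without mouse 3. A fit without 1 mouse has fewer libraries and so less power. A call lost there, here or below, need not depend on that mouse. Genes of high counts were called more often. With a filter at 5 CPM in 3 libraries, 1070 of 9549 genes were called higher and 823 lower. The shares of all genes are therefore a low mark for lists of high-count genes. In 16.6% of the genes tested every DCA library was above every untreated one, and in 14.2% every DCA library was below.

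**Figure D1:**
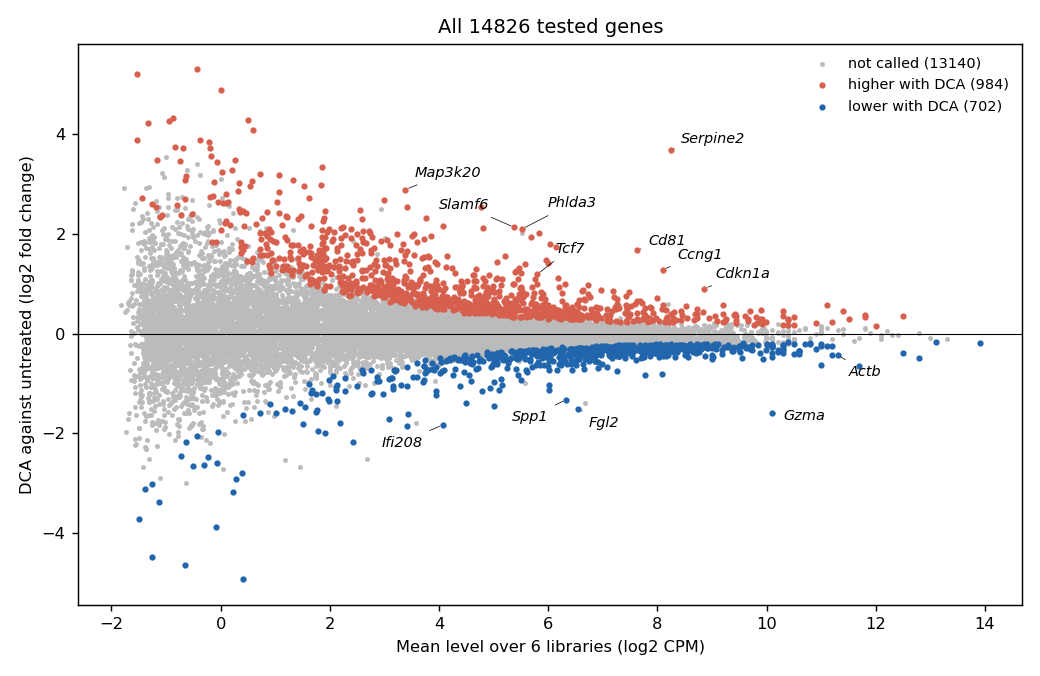
Log2 fold change of DCA against untreated cells (vertical axis) over the mean level in the 6 libraries (horizontal axis, log2 CPM) for all 14826 tested genes. Red points are the 984 genes called higher, blue points the 702 called lower and grey points the rest. At high levels, Serpine2, Cd81, Ccng1, Cdkn1a and Gzma are among the larger called changes.

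Serpine2, a secreted inhibitor of serine proteases, was the largest rise where genes averaging at least 3 log2 CPM are ranked. It stood at 31.9, 38.1 and 65.8 CPM in the untreated libraries of mice 1, 2 and 3, and at 488, 542 and 654 CPM with DCA. The log2 fold change was 3.69 ± 0.12 (standard error, SE; adjusted p = 1.2e-06), a 12.9-fold rise. The next 9 rises were Map3k20, Penk, Cox6b2, Tex15, Zmat3, Slamf6, Crip2, Phlda3 and Dglucy, with log2 fold changes of 2.01 to 2.89 and no overlap between the groups. Map3k20, a kinase that senses stalled ribosomes, went from 1.90 to 3.46 CPM untreated to 17.4 to 19.2 CPM with DCA. Penk encodes the precursor of enkephalin peptides and rose from 2.31 to 4.18 CPM to 17.3 to 19.7 CPM. Cox6b2 encodes an isoform of a cytochrome oxidase subunit known from testis, and Tex15 a protein of male meiosis. Cox6b2 was between 5.83 and 11.5 CPM in untreated and between 44.2 and 47.8 CPM in DCA libraries, and Tex15 between 3.83 and 5.18 CPM and between 21.7 and 24.0 CPM. Crip2, a LIM-domain protein gene, stood at 8.39 to 12.3 CPM without and 42.7 to 48.5 CPM with DCA.

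Falls were ranked among called genes averaging at least 3 log2 CPM with the same sign in 3 mice and an established symbol. Gzma, which encodes the cytotoxic protease granzyme A, was among the 10 largest of them. Its level was 1885, 1647 and 1498 CPM in the untreated libraries and 512, 596 and 559 CPM with DCA (log2 fold change -1.59 ± 0.08, adjusted p = 3.18e-05). Fgl2, a secreted fibrinogen-like immune regulator, fell from 151, 138 and 127 CPM to 47.0, 50.3 and 48.7 CPM (-1.51 ± 0.09, adjusted p = 4.22e-05). Spp1, which encodes the secreted phosphoprotein osteopontin, stood at 121, 84.1 and 139 CPM without and 60.1, 32.8 and 46.1 CPM with DCA (-1.32 ± 0.11, adjusted p = 0.000283). In each of these genes the highest DCA library was below the lowest untreated one. The adjacent genes Tmem176a and Tmem176b, which encode related membrane proteins, fell together, from 40.6 to 50.9 CPM to 16.1 to 19.5 CPM and from 37.9 to 38.7 CPM to 14.3 to 18.97 CPM. Further falls were genes of the interferon-inducible p200 family, Ifi208 (20.9 to 30.4 CPM to 5.67 to 10.0 CPM) and Ifi214 (20.6 to 22.8 CPM to 7.97 to 10.95 CPM). Pld4, a lysosomal nuclease gene, went from 11.03 to 16.2 CPM to 3.32 to 4.70 CPM, and Kit, the receptor of stem cell factor, from 10.7 to 19.3 CPM to 3.38 to 7.02 CPM. The Kit call was lost without mouse 3 (adjusted p = 0.0658). Zfp935, a zinc finger gene, had the largest fitted fall of this ranking (-1.84 ± 0.37). Its groups overlapped, however, at 11.3 to 18.3 CPM untreated and 2.45 to 11.5 CPM with DCA. Its call was lost without the term for mouse (adjusted p = 0.0782), without mouse 2 (0.14) and without mouse 3 (0.0654).

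Of the 32 gene lists, that of p53 targets had the largest share of called members. The lists were written with earlier results of these data known, so this rank is a description. The protein p53 is a transcription factor that is stabilised after DNA damage and other stresses. It switches on genes that stop the cell cycle, genes that promote cell death and genes that feed back on p53 itself, and it binds DNA at a pair of adjacent 10-base elements. Of 36 tested members of a list of 37, 22 rose and 0 fell, where 6.64% and 4.73% of all genes did, and the median log2 fold change was 0.84, where that of all genes was 0.02. The rises were 22 under cyclic loess scaling, and 19, 18 and 18 without mouse 1, 2 and 3. Ckap2, a mitotic spindle gene of the list (-0.28 ± 0.08, adjusted p = 0.065), was called lower without the term for mouse (0.0498) and with DESeq2 (0.019). The 14 members that were not called ran from Ckap2 to Ak1, an adenylate kinase gene at 1.80 ± 0.51 (adjusted p = 0.0507, but 0.0359 with DESeq2 and 0.0455 under cyclic loess). Trp53, the gene of p53 itself, was at 179, 197 and 172 CPM in untreated and 172, 181 and 186 CPM in DCA libraries, and its groups overlapped (log2 fold change -0.02 ± 0.07, adjusted p = 0.886; 0.04 under cyclic loess).

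The promoters of 4 of the risen targets hold an adjacent pair of p53 elements in a window from 250 bases before to 50 bases after a RefSeq transcription start (assembly GRCm38.p6). The sequences are shown because these genes cover arrest, costimulation and control of p53. Each is written 5′ to 3′ on the strand of its gene, with the 20 bases of the pair in capitals. Up to 1 mismatch was allowed in each element, with its fixed C and G kept.
Ccng1, chr11:40755422-40755521, minus strand: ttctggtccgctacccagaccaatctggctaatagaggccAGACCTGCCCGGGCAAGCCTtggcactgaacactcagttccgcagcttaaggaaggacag
Cd80, chr16:38458782-38458881, plus strand: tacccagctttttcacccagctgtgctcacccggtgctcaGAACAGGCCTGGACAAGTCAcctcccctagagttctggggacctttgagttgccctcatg
Cdkn1a, chr17:29090888-29090978, plus strand: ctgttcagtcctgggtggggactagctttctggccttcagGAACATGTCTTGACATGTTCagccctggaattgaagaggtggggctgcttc
Gtse1, chr15:85859940-85859969, plus strand: accggGAGCAAGTTGGGGCTTGCCTctgac
The pair begins 195 bases before the RefSeq start of its window in Ccng1, 111 bases before it in Cd80, 51 bases before it in Cdkn1a and 1 base before it in Gtse1. Some genes have more than 1 such start, and which of them these cells used is not known here. Such a pair was found in 67 of 32851 windows of all genes (0.2%), in 28 of 12747 windows of tested genes (0.22%), in 9 of 965 windows of genes called higher (0.93%) and in 1 of 675 windows of genes called lower (0.15%). Of the 36 tested members of the p53 list, risen or not, 28 had windows, 40 in all, and 4 of those held the pair (10.0%). Of the 22 risen targets, 17 had windows, 24 in all, and the same 4 windows held the pair (16.67%). These 4 are also among the 9 windows of genes called higher. The list was made of p53 targets, so its shares of pairs cannot tell anything of the response to DCA. The element is its own reverse complement in form, so both strands were searched. A match describes the letters of the window and is not a measured binding site, and elements outside the window were not searched.

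Targets of each role rose. Cdkn1a, the inhibitor of cyclin-dependent kinases that p53 uses for arrest, was at 338, 284 and 351 CPM without and 631, 568 and 616 CPM with DCA (0.91 ± 0.06, adjusted p = 6.75e-05). Ccng1, the atypical cyclin G1, went from 155, 149 and 175 CPM to 395, 384 and 388 CPM (1.29 ± 0.07, adjusted p = 3.18e-05). Gtse1, whose product restrains p53 in the cell cycle, went from 76.1, 86.6 and 82.0 CPM to 136, 141 and 129 CPM (0.73 ± 0.07, adjusted p = 0.000753). Psrc1, a spindle protein gene, stood at 26.9 to 41.8 CPM without and 103 to 114 CPM with DCA. In all 4 the groups were well apart, as the plot of levels in each library shows for Cdkn1a.

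Among the targets that promote death, Bax, the pore former of the mitochondrial outer membrane, went from 123, 130 and 133 CPM to 234, 216 and 238 CPM (0.83 ± 0.07, adjusted p = 0.000247). Pmaip1 (Noxa) rose from 46.0, 55.1 and 48.9 CPM to 79.3, 102 and 107 CPM (0.94 ± 0.09), and Fas, the death receptor, from 19.5, 21.5 and 30.9 CPM to 45.4, 46.3 and 47.2 CPM (0.97 ± 0.13). Phlda3, which restrains the kinase Akt, was at 15.6 to 19.6 CPM without and 70.8 to 79.0 CPM with DCA (2.10 ± 0.11, adjusted p = 3.93e-05). Bbc3 (Puma) was called at 3.22 to 4.59 CPM against 5.16 to 8.34 CPM, but not without mouse 1, 2 or 3 (adjusted p = 0.139, 0.161 and 0.069) or under cyclic loess (0.0566). Eda2r had the largest fitted change of the list, 3.02 ± 0.65, at 0.0348 to 0.414 CPM untreated and 1.94 to 2.33 CPM with DCA. The lowest of these is 1 count, so the size is poorly set, and the call was lost without mouse 2 (0.0923) and without mouse 3 (0.0535).

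Of the genes that feed back on p53, Mdm2, its ubiquitin ligase, was at 103, 101 and 108 CPM in untreated and 183, 208 and 175 CPM in DCA libraries (0.86 ± 0.08, adjusted p = 0.000519). Zmat3, an RNA-binding target, went from 4.42 to 8.27 CPM to 25.4 to 30.01 CPM (2.16 ± 0.21), Plk2 from 3.16 to 8.30 CPM to 15.7 to 20.6 CPM (1.85 ± 0.21) and Trp53inp1 from 22.9 to 29.8 CPM to 56.0 to 69.9 CPM (1.31 ± 0.12). Targets of other roles rose too. They include Dglucy, a mitochondrial D-glutamate cyclase, from 16.7 to 27.8 CPM to 84.6 to 98.8 CPM (2.01 ± 0.14), and Cd80, a costimulatory ligand, from 5.73 to 10.6 CPM to 19.4 to 25.5 CPM (1.45 ± 0.16).

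**Figure D2:**
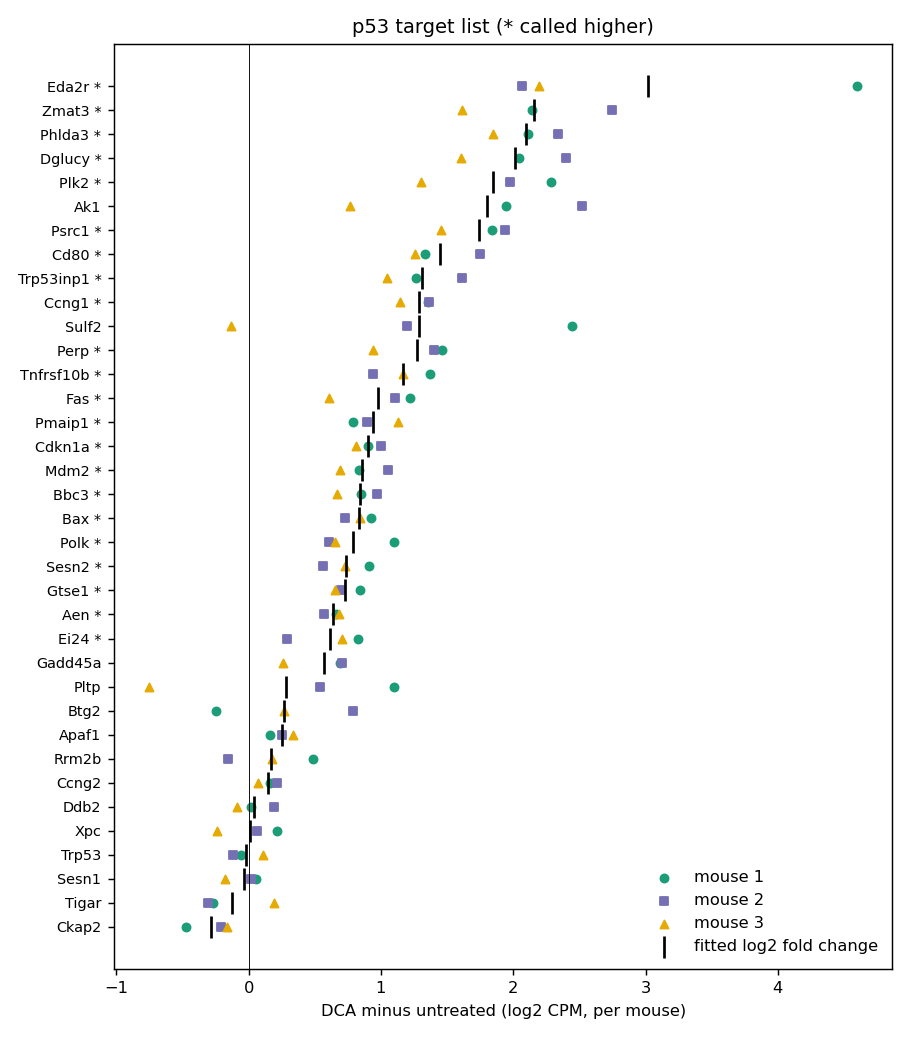
Log2 difference of DCA minus untreated CPM in each mouse (coloured symbols) and fitted log2 fold change (black bars) for the 36 tested p53 targets, with an asterisk at the 22 called higher. For the called genes the symbols of all 3 mice lie to the right of 0, while those of Trp53 lie on both sides.

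Some genes of DNA replication and mitosis fell, by small amounts. Of 28 replication and nucleotide supply genes, 0 rose and 11 fell, with a median of -0.26, and of 32 mitosis genes, 0 rose and 7 fell, with a median of -0.11. Rrm1, the large subunit of ribonucleotide reductase, went from 483, 503 and 489 CPM to 372, 395 and 384 CPM (-0.36 ± 0.05, adjusted p = 0.00344). Plk1, a kinase that drives mitosis, fell from 168, 170 and 160 CPM to 120, 129 and 115 CPM (-0.45 ± 0.06, adjusted p = 0.00317). Both sets of libraries were tight and did not overlap. Mcm5 (-0.38 ± 0.06) and Mcm2 (-0.46 ± 0.09), of the replicative helicase, fell, at adjusted p = 0.0559 and 0.0544 without mouse 1, and Mcm2 also at 0.0958 without mouse 2. Cdc20, which activates the anaphase-promoting complex, fell by 0.30 on the log2 scale, with adjusted p = 0.0758 and 0.084 without mouse 1 and 2. Mki67, a general marker of proliferation, stood at 275, 237 and 241 CPM without and 231, 220 and 204 CPM with DCA and was not called (-0.20 ± 0.06, adjusted p = 0.0728, but 0.0282 with DESeq2). The counts of 11 and 7 became 2 and 1 without mouse 1, 3 and 1 without mouse 2, and 13 and 4 without mouse 3, while cyclic loess gave 8 and 5.

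The pyruvate dehydrogenase complex, on whose kinases DCA acts, showed little. Of 14 tested members of its list, 1 rose and 1 fell, with a median of -0.15, and 1, 0 and 0 rose and 0 fell without mouse 1, 2 and 3. The main counts are 7.14% each, where 6.64% of all genes tested rose and 4.73% fell. Pdk1 was at 172, 158 and 177 CPM in untreated and 167, 194 and 157 CPM in DCA libraries, with the arms overlapping (0.03 ± 0.09, adjusted p = 0.883). Its sign turned without mouse 2 (-0.11). Pdk2 rose at a low level, from 2.82, 0.794 and 1.24 CPM to 4.69, 3.40 and 3.11 CPM (1.35 ± 0.34, adjusted p = 0.0356). That call was lost without the term for mouse (0.0967), without mouse 2 (0.171) and without mouse 3 (0.107). Pdk3 went from 188, 177 and 180 CPM to 152, 151 and 159 CPM (-0.24 ± 0.06, adjusted p = 0.0449), and the call was lost under cyclic loess (0.114) and without mouse 1 (0.3), 2 (0.151) or 3 (0.0693). Pdk4 had at most 0.0696 CPM and was not tested. Pdha1, the catalytic subunit, was not called (-0.15 ± 0.09, adjusted p = 0.331), nor was the pyruvate carrier Mpc1 (-0.31 ± 0.10, adjusted p = 0.0818).

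Downstream of the complex, genes of the tricarboxylic acid cycle and of the respiratory chain were lower where they were called. Of 20 cycle genes 0 rose and 8 fell (median -0.17), and of 56 nuclear-encoded respiratory chain genes 0 rose and 23 fell (median -0.19). Sdha, the flavoprotein subunit of succinate dehydrogenase, went from 254, 281 and 239 CPM to 199, 208 and 198 CPM (-0.35 ± 0.06, adjusted p = 0.0085), and Ogdh, of the oxoglutarate dehydrogenase complex, from 119, 118 and 105 CPM to 85.2, 85.8 and 85.1 CPM (-0.42 ± 0.08, adjusted p = 0.00929). Atp5a1, the alpha subunit of ATP synthase, fell from 1447, 1466 and 1362 CPM to 1100, 1079 and 1099 CPM (-0.38 ± 0.05, adjusted p = 0.00175). For these genes each mouse changed by a similar amount. The falls are small and near the limit of 3 mice. Without mouse 1 the adjusted p was 0.0667 for Sdha, 0.0795 for Ogdh and 0.0653 for Atp5pb (-0.31 ± 0.05), and without mouse 2 it was 0.0778, 0.0786 and 0.0647. Under cyclic loess 3 cycle genes were lower, and 12 respiratory chain genes were lower and 1 higher. Without mouse 1, 2 and 3 the lower calls were 0, 0 and 7 for the cycle and 3, 1 and 15 for the chain. Of 12 mitochondrially encoded respiratory chain genes, mt-Co1 rose (5487, 4525 and 5354 CPM to 7073, 6665 and 5943 CPM; 0.36 ± 0.06, adjusted p = 0.00929, and 0.0777 without mouse 2), while mt-Nd1 fell (9563, 7873 and 7160 CPM to 5908, 5969 and 5500 CPM; -0.49 ± 0.06, adjusted p = 0.0014). mt-Nd2 fell as well (-0.37 ± 0.06, adjusted p = 0.00782, and 0.0692 without mouse 1), and the mitochondrial share of counts was 2.27% to 2.85% in untreated and 2.11% to 2.40% in DCA libraries.

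Glycolysis genes did not move one way. Of 25, 5 rose and 2 fell, with a median of 0.02, while 2 rose and 1 fell in the fit that had no term for mouse, and 7 rose and 0 fell under cyclic loess (median 0.14). The rises were 2, 1 and 3 and the falls 0, 0 and 1 without mouse 1, 2 and 3. Ldhb, the lactate dehydrogenase isoform of oxidative tissues, was the clearest, from 19.96, 18.3 and 18.7 CPM to 35.5, 35.9 and 38.7 CPM (0.95 ± 0.11, adjusted p = 0.00122). Ldha, the isoform of activated T cells, was at 8615, 8738 and 8634 CPM without and 8375, 7889 and 8190 CPM with DCA. Its groups did not overlap, but the change was small and not called (-0.09 ± 0.04, adjusted p = 0.151), and under cyclic loess it was 0.04. The glucose transporter Slc2a1 (-0.02 ± 0.09, adjusted p = 0.928; 0.05 under cyclic loess and 0.13 without mouse 2) and the hexokinase Hk2 (-0.03 ± 0.07, adjusted p = 0.813; 0.04 under cyclic loess and 0.03 without mouse 1) were not called. Eno2, a second enolase, rose at a low level, from 0.552 to 2.50 CPM to 4.76 to 5.51 CPM (adjusted p = 0.0284, and 0.109 and 0.0723 without mouse 2 and 3). Eno1, the main enolase, was called lower (-0.16 ± 0.03, adjusted p = 0.0144), but the value was -0.04 under cyclic loess (adjusted p = 0.553), and the call was lost with a filter at 5 CPM (0.0555) and without mouse 1 (0.126) or 2 (0.068). Of the lactate carriers, Slc16a1 was called lower (-0.29 ± 0.08, adjusted p = 0.0482) and lost that call without the term for mouse (0.0504), under cyclic loess (0.071) and without mouse 1, 2 or 3 (0.152, 0.229 and 0.0647). Slc16a3 was not called (-0.22 ± 0.06, adjusted p = 0.0559), though it was with RLE size factors (0.0468), with DESeq2 (0.0177) and with the filter at 5 CPM (0.0413).

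Txnip, an arrestin-domain protein that is induced by glucose metabolites and limits glucose uptake, rose from 111, 115 and 125 CPM to 195, 197 and 177 CPM (0.70 ± 0.08, adjusted p = 0.00109). Of 10 tested genes of its glucose-sensing list, 2 rose and 1 fell, with a median of 0.15. Mxd4 was the other rise (0.63, adjusted p = 0.0483), lost without mouse 1 (0.117), 2 (0.209) or 3 (0.146) and under cyclic loess (0.0857). Mxd3 fell (-0.41, adjusted p = 0.0264), a call lost without mouse 2 (0.16) or 3 (0.0925). Of 28 hypoxia-induced genes 7 rose and 1 fell, with a median of 0.13. Kdm3a, a histone demethylase, went from 112, 109 and 110 CPM to 189, 189 and 171 CPM (0.73 ± 0.07, adjusted p = 0.000519), and Hilpda, which inhibits lipid breakdown, from 188, 161 and 193 CPM to 259, 224 and 250 CPM (0.44 ± 0.06, adjusted p = 0.00269). Hif1a, the oxygen-regulated transcription factor gene, was itself the member that fell, from 294, 301 and 259 CPM to 215, 219 and 216 CPM (-0.39 ± 0.06, adjusted p = 0.00632, and 0.0612 and 0.0679 without mouse 1 and 2). The 7 rises became 2, 2 and 7 without mouse 1, 2 and 3.

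Lipid genes changed in small numbers. Of all genes tested, 6.64% were called higher and 4.73% lower. The shares were 4.17% and 16.7% for cholesterol synthesis, 10.5% and 0% for fatty acid synthesis, and 12.5% and 8.33% for fatty acid oxidation. Of 24 genes of cholesterol synthesis 1 rose and 4 fell, but 0 rose and 0, 2 and 2 fell without mouse 1, 2 and 3. Sqle, squalene epoxidase, was among the falls (-0.33 ± 0.07, adjusted p = 0.0174, and 0.151 and 0.118 without mouse 1 and 2). Of 19 genes of fatty acid synthesis 2 rose (1, 0 and 1 without mouse 1, 2 and 3). Of 24 of fatty acid oxidation 3 rose and 2 fell (1 and 0, 0 and 0, and 1 and 1 in the same order). Scd2, a fatty acid desaturase, rose (0.32 ± 0.05, adjusted p = 0.00668, and 0.0797 and 0.0604 without mouse 1 and 2), and Acsl5, which activates long fatty acids, fell (-0.36 ± 0.06, adjusted p = 0.00535, and 0.0523 and 0.0507 without mouse 1 and 2). Acly, which makes acetyl-CoA from citrate, was at 203, 202 and 205 CPM in untreated and 202, 188 and 174 CPM in DCA libraries (-0.12 ± 0.07, adjusted p = 0.312). Acss2, which makes it from acetate, was at 24.5 to 32.0 CPM and 30.8 to 40.6 CPM (0.32 ± 0.13, adjusted p = 0.14). Of 24 genes of histone acetylation, Hdac7 was called higher (0.30 ± 0.08, adjusted p = 0.0468), and that call was lost without the term for mouse (0.0504), with RLE size factors (0.0539) and without mouse 1 (0.267) or 2 (0.213).

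Receptors and transcription factors known from naive and stem-like T cells were among the rises. Of 22 tested genes of naive, stem and central memory cells, 10 rose and 2 fell, with a median of 0.26, and the rises were 9, 7 and 9 without mouse 1, 2 and 3. Slamf6, a surface receptor that marks stem-like CD8 T cells, went from 16.9, 11.5 and 18.6 CPM to 62.8, 67.2 and 72.7 CPM (2.13 ± 0.14, adjusted p = 6.75e-05). Tcf7, which encodes TCF1, went from 24.3, 35.7 and 42.8 CPM to 69.5, 90.0 and 71.2 CPM (1.19 ± 0.14, adjusted p = 0.0014). In both genes every DCA library was above every untreated one. In a bulk sample, more cells with a transcript and more transcript per cell cannot be told apart.

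S1pr1, the receptor for exit from lymphoid organs, rose from 28.2, 26.4 and 27.8 CPM to 59.9, 68.3 and 63.2 CPM (1.22 ± 0.10, adjusted p = 0.000247). Ccr7, which guides cells into lymph nodes, rose from 177, 208 and 189 CPM to 229, 310 and 293 CPM (0.53 ± 0.07, adjusted p = 0.00212). The transcription factor genes Id3 (74.9, 106 and 85.8 CPM to 146, 169 and 169 CPM; 0.87 ± 0.08) and Myb (33.6, 31.2 and 32.6 CPM to 51.2, 56.6 and 62.1 CPM; 0.80 ± 0.10) rose as well. Il7r, the receptor of the survival cytokine IL-7, was at 81.7, 61.3 and 97.9 CPM without and 85.3, 78.5 and 98.7 CPM with DCA and was not called (0.14 ± 0.09, adjusted p = 0.356). The 2 falls were Ly6c2, a memory cell surface protein (37.0, 40.4 and 62.7 CPM to 22.4, 16.3 and 24.99 CPM; -1.12 ± 0.13, adjusted p = 0.00153), and Eomes, a T-box factor of memory cells (6.20 to 6.92 CPM to 2.06 to 4.42 CPM; -1.15 ± 0.26, adjusted p = 0.0215). The Eomes call was lost without mouse 2 (0.138) and without mouse 3 (0.0863).

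**Figure D3:**
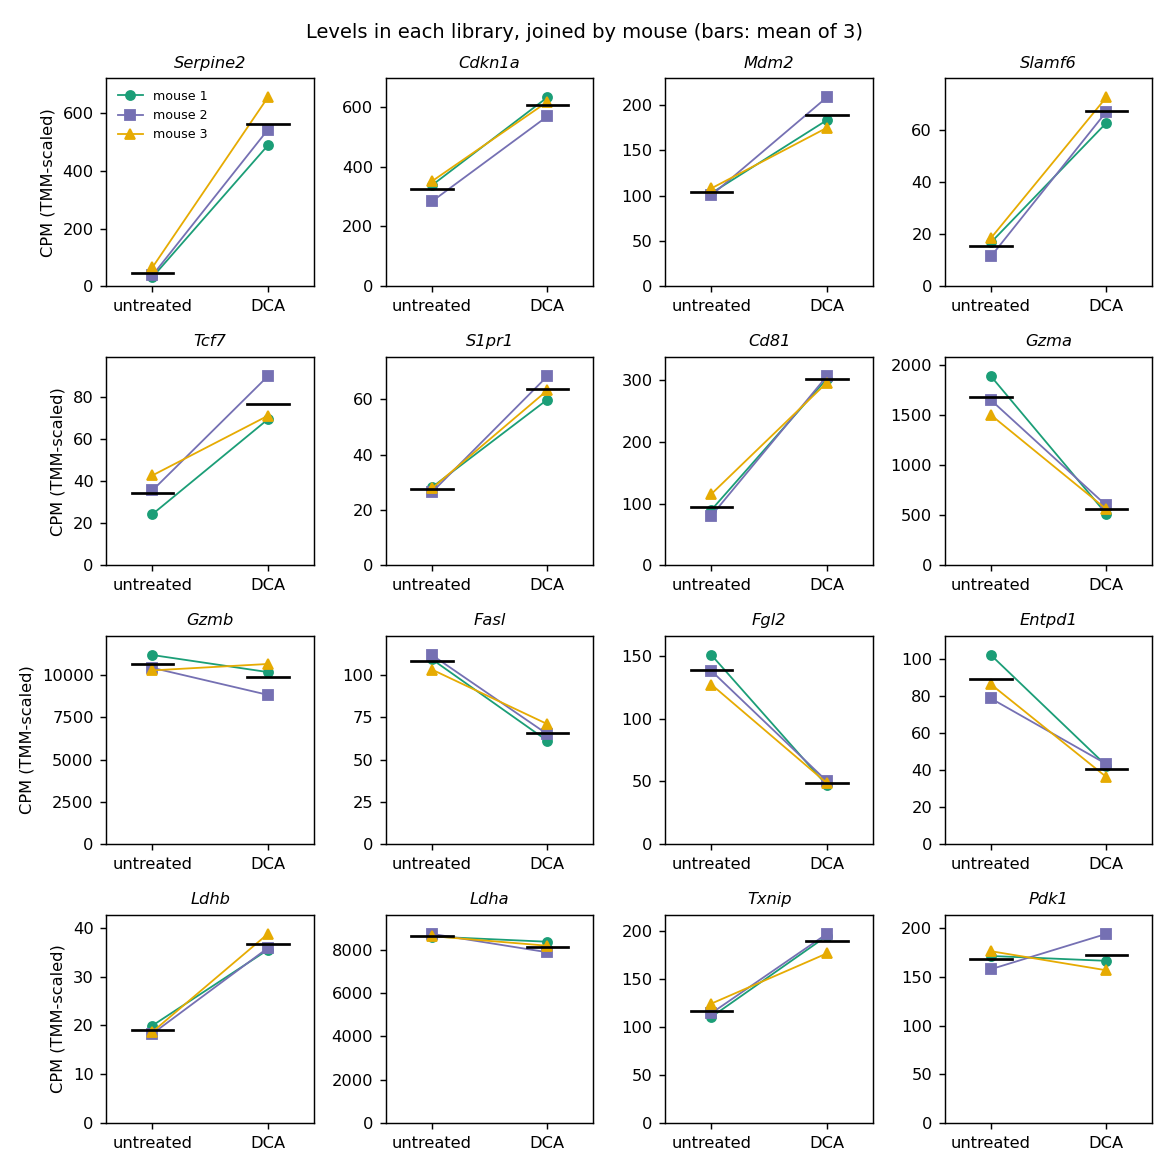
CPM after TMM scaling (vertical axes from 0) of 16 genes in each library, with lines joining the untreated and DCA library of a mouse and black bars at the mean of 3. Serpine2, the p53 targets Cdkn1a and Mdm2, the stem-like genes Slamf6, Tcf7 and S1pr1, and Cd81, Ldhb and Txnip rose in every mouse; Gzma, Fasl, Fgl2 and Entpd1 fell in every mouse; Gzmb, Ldha and Pdk1 were not called.

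Of 29 tested genes of the effector state, 2 rose and 6 fell, with a median of -0.14, and 2, 1 and 4 rose and 5, 5 and 8 fell without mouse 1, 2 and 3. Rises were 6.9% of the list and falls 20.7%, against 6.64% and 4.73% of all genes tested. Beside Gzma, Fasl, the ligand of Fas, fell from 109, 112 and 103 CPM to 61.1, 65.0 and 71.0 CPM (-0.72 ± 0.09, adjusted p = 0.00143). Tbx21, which encodes the effector factor T-bet, was at 24.97, 37.0 and 21.6 CPM without and 17.7, 13.9 and 16.6 CPM with DCA (-0.76 ± 0.19, adjusted p = 0.0347, and 0.169 without mouse 2). Ctsw (-0.46 ± 0.07), a cathepsin of cytotoxic cells, and Id2 (-0.33 ± 0.05), an inhibitor of E proteins, fell. Gzmb, the other main granzyme, was at 11200, 10440 and 10290 CPM in untreated and 10190, 8840 and 10670 CPM in DCA libraries, with overlap and mouse 3 going up (-0.11 ± 0.05, adjusted p = 0.212). Its value was 0.02 under cyclic loess, and it was called without mouse 3 (0.0344) and with no filter (0.0277). Prf1, perforin, was at 64.2, 34.6 and 59.3 CPM and 55.4, 32.8 and 35.5 CPM (-0.35 ± 0.13, adjusted p = 0.122), and was called with no filter (0.0309). Ifng was at 0.311 to 1.27 CPM and 0.222 to 0.432 CPM and not called (adjusted p = 0.15). The 2 rises were transcription factor genes of effector cells: Irf4, from 34.3, 27.0 and 34.8 CPM to 51.4, 49.9 and 53.5 CPM (0.70 ± 0.10, adjusted p = 0.00344), and Prdm1, from 24.1, 18.9 and 26.3 CPM to 43.7, 44.2 and 34.9 CPM (0.83 ± 0.15, adjusted p = 0.00924, and 0.0852 without mouse 2).

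Inhibitory receptors and genes of exhaustion split. Of 23 tested, 6 rose and 5 fell, and the median was -0.02 (0.04 under cyclic loess and 0.10 without mouse 3). With mouse 1, 2 or 3 left out, 5, 3 and 5 rose and 2, 3 and 5 fell. Btla, an inhibitory receptor, went from 4.0, 2.59 and 3.93 CPM to 13.4, 10.8 and 14.01 CPM (1.88 ± 0.18, adjusted p = 0.000648). Cd200, a ligand for an inhibitory receptor, went from 3.30, 5.04 and 9.13 CPM to 20.2, 19.3 and 21.8 CPM (1.91 ± 0.24, adjusted p = 0.00177), and Ikzf2, the factor Helios, from 18.4, 14.7 and 19.7 CPM to 37.1, 36.2 and 41.1 CPM (1.12 ± 0.11, adjusted p = 0.000711). Tox, a factor of exhausted cells, rose from 5.35 to 6.80 CPM to 10.2 to 14.6 CPM (0.97 ± 0.21, adjusted p = 0.0187, and 0.0544 and 0.137 without mouse 1 and 2). Pdcd1, which encodes PD-1, was called higher with overlap, from 26.6, 20.9 and 24.1 CPM to 40.1, 26.2 and 36.3 CPM (0.51 ± 0.11, adjusted p = 0.0203). It lost that call without the term for mouse (0.0628) and without mouse 1 (0.134), 2 (0.0575) or 3 (0.077).

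Entpd1, which encodes the ectonucleotidase CD39, fell from 102, 78.8 and 86.5 CPM to 42.5, 43.3 and 36.3 CPM (-1.13 ± 0.10, adjusted p = 0.000451). Cd244a, a SLAM-family receptor, fell from 68.5, 62.5 and 67.8 CPM to 49.0, 37.9 and 43.0 CPM (-0.62 ± 0.09, adjusted p = 0.00347). Both were below every untreated library in every DCA library. Lag3 (-0.22 ± 0.15, adjusted p = 0.381) and Havcr2, which encodes TIM-3 (-0.39 ± 0.23, adjusted p = 0.327), overlapped between the groups and were not called.

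Of 26 cytokine and chemokine receptor genes, 4 rose and 5 fell, while 2, 2 and 2 rose and 3, 1 and 3 fell without mouse 1, 2 and 3. Il2ra, the inducible alpha chain of the IL-2 receptor, went from 684, 679 and 677 CPM to 905, 823 and 875 CPM (0.35 ± 0.05, adjusted p = 0.00329). Il15ra rose from 20.9 to 25.1 CPM to 31.3 to 39.9 CPM (0.62 ± 0.12, adjusted p = 0.0148, and 0.0797 and 0.0691 without mouse 1 and 3). Il12rb1, a chain of the IL-12 receptor, fell from 63.0 to 73.8 CPM to 39.9 to 54.4 CPM (-0.57 ± 0.09, adjusted p = 0.0052, and 0.0566 without mouse 2).

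Of 23 genes of homing and adhesion, 4 rose and 2 fell, and 2 rose and 2 fell without mouse 2. The main shares were 17.4% and 8.7%, against 6.64% and 4.73% of all genes tested. Cd81, a tetraspanin that organises receptors in the membrane, went from 89.8, 80.4 and 116 CPM to 302, 307 and 296 CPM (1.68 ± 0.10, adjusted p = 5.86e-05). Cd44, the hyaluronan receptor, rose from 45.4, 39.97 and 46.4 CPM to 68.4, 71.0 and 76.2 CPM (0.71 ± 0.09, adjusted p = 0.00179), and Itgae, the integrin chain CD103, from 4.56, 6.28 and 11.6 CPM to 19.8, 23.2 and 18.2 CPM (1.53 ± 0.26, adjusted p = 0.00712, and 0.102 without mouse 2). Itgb1, the integrin beta 1 chain, fell from 147, 143 and 143 CPM to 91.6, 105 and 93.9 CPM (-0.57 ± 0.07, adjusted p = 0.00198), and Cd2, an adhesion receptor, from 530, 546 and 562 CPM to 400, 408 and 390 CPM (-0.45 ± 0.05, adjusted p = 0.00154).

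Some genes of the T cell receptor complex fell. Of 23 genes of the complex and its first signals 0 rose and 6 fell, with a median of -0.19, and the lower calls numbered 5 under cyclic loess and 4, 4 and 6 without mouse 1, 2 and 3, where 1 rose without mouse 3. Cd8a fell from 716, 753 and 752 CPM to 550, 588 and 614 CPM (-0.34 ± 0.05, adjusted p = 0.00353), Cd8b1 from 733, 731 and 785 CPM to 565, 580 and 618 CPM (-0.35 ± 0.05) and Cd3g from 1624, 1632 and 1914 CPM to 1313, 1343 and 1417 CPM (-0.34 ± 0.05). Cd3e, another chain of the complex, was at 388, 392 and 415 CPM without and 366, 444 and 327 CPM with DCA, with overlap and no call (-0.08 ± 0.09, adjusted p = 0.61). It was at 0.001 under cyclic loess and 0.051 without mouse 3. The transgenic Trbv14 fell by a like amount to Cd8a (-0.43 ± 0.05, adjusted p = 0.000958). Of 24 activation factors 2 rose and 2 fell (1 and 0, 1 and 1, and 2 and 0 without mouse 1, 2 and 3). These main counts are 8.33% each, not far from the 6.64% and 4.73% of all genes tested. Nfkb1 (0.39 ± 0.06, adjusted p = 0.00341, and 0.0505 without mouse 1) and its inhibitor Nfkbia (0.61 ± 0.10, adjusted p = 0.00673, and 0.0697 without mouse 2) were the rises.

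**Figure D4:**
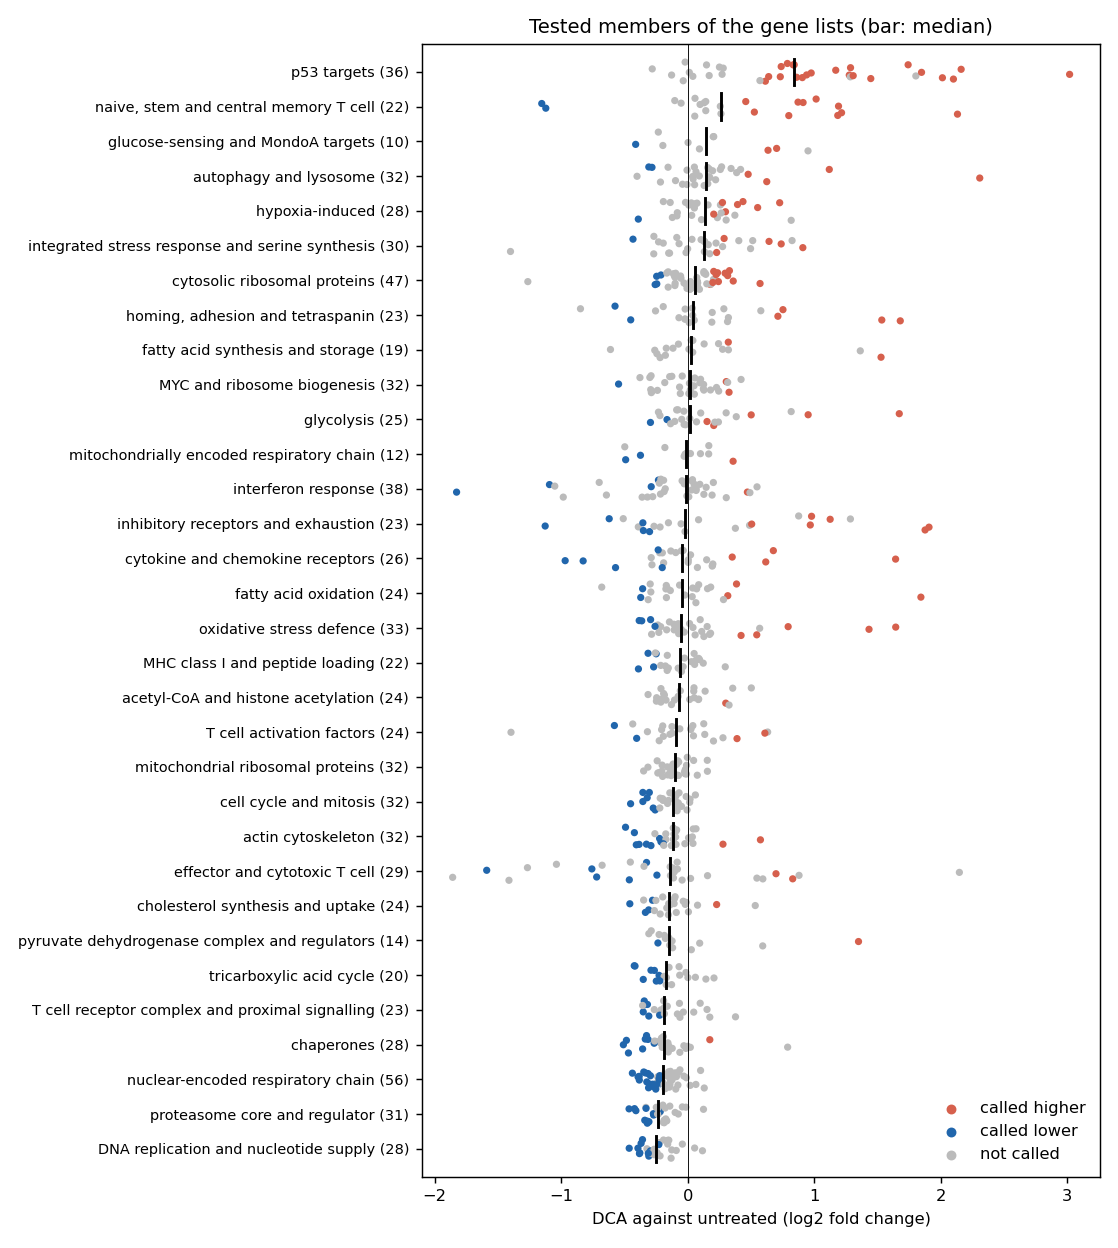
Log2 fold changes (horizontal axis) of the tested members of 32 gene lists (number tested in brackets), ordered by the median, which the black bars mark. Red points were called higher and blue points lower; the p53 targets stand at the top with a median of 0.84 and 22 red points, and the DNA replication genes at the bottom with -0.26 and 11 blue points.

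Of 38 interferon response genes, 1 rose and 4 fell (0 and 2, 0 and 2, and 1 and 5 without mouse 1, 2 and 3), with a median of -0.02, a sign that turned without mouse 1 (0.06) and with the filter at 5 CPM (0.05). Main shares were 2.63% higher and 10.5% lower, against 6.64% and 4.73% of all genes tested. Iigp1, an immunity-related GTPase, fell from 34.9, 53.4 and 37.8 CPM to 20.1, 19.1 and 18.99 CPM (-1.09 ± 0.14, adjusted p = 0.00195). Gbp3, a guanylate-binding protein gene, rose from 22.6 to 25.6 CPM to 31.9 to 35.4 CPM (0.47 ± 0.11, adjusted p = 0.0284, and 0.115 and 0.168 without mouse 1 and 2). Of 22 genes of MHC class I and peptide loading, 0 rose and 4 fell, with a median of -0.06, while under cyclic loess 3 rose, 2 fell and the median was 0.02. The lower calls were 2 without the term for mouse and 1, 1 and 4 without mouse 1, 2 and 3, where 1 rose without mouse 3. Psmb8, an immunoproteasome subunit, fell from 1278, 1206 and 1276 CPM to 936, 957 and 976 CPM (-0.39 ± 0.05, adjusted p = 0.00162).

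Of 47 cytosolic ribosomal protein genes, 11 rose and 4 fell, with a median of 0.05, and under cyclic loess 20 rose and 0 fell, with a median of 0.14. With mouse 1, 2 or 3 left out, 4, 5 and 7 rose and 0, 0 and 4 fell. Rps19 rose from 1642, 1659 and 1830 CPM to 2503, 2464 and 2648 CPM (0.57 ± 0.04, adjusted p = 0.00016), and Rpsa from 1056, 1074 and 1121 CPM to 1422, 1360 and 1388 CPM (0.36 ± 0.05, adjusted p = 0.00218). Ribosomal protein genes have many near-identical pseudogene copies, so reads may have been split between them. Myc, the growth-promoting factor, was at 823, 874 and 811 CPM without and 891, 1116 and 1103 CPM with DCA (0.30 ± 0.06, adjusted p = 0.0187, and 0.134 and 0.0737 without mouse 2 and 3). Of 32 MYC and ribosome biogenesis genes 2 rose and 1 fell, while 1, 1 and 1 rose and 0, 0 and 5 fell without mouse 1, 2 and 3. The main shares of 6.25% and 3.12% were near the 6.64% and 4.73% of all genes tested. Of 32 mitochondrial ribosomal protein genes 0 were called (2 with DESeq2).

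Of 31 proteasome genes 0 rose and 11 fell, with a median of -0.23, and of 28 chaperone genes 1 rose and 8 fell, with a median of -0.19. Under cyclic loess the lower calls were 6 and 4, with DESeq2 20 and 12, and without mouse 1, 2 and 3 they were 1, 1 and 16 for the proteasome and 2, 2 and 15 for the chaperones. Psma6, a subunit of the proteasome core, went from 363, 386 and 372 CPM to 261, 262 and 291 CPM (-0.46 ± 0.06, adjusted p = 0.00222). Cct7, of the chaperonin that folds actin and tubulin, went from 859, 899 and 859 CPM to 620, 595 and 655 CPM (-0.48 ± 0.06, adjusted p = 0.00122), and Stip1, a cochaperone of HSP90, from 438, 459 and 416 CPM to 304, 321 and 322 CPM (-0.47 ± 0.06, adjusted p = 0.00175). Of 32 actin cytoskeleton genes 2 rose and 10 fell (6 under cyclic loess), with a median of -0.11, and 1, 1 and 2 rose and 7, 4 and 7 fell without mouse 1, 2 and 3. Actb, beta-actin, fell from 3012, 2901 and 2737 CPM to 2261, 2131 and 2063 CPM (-0.42 ± 0.04, adjusted p = 0.000543), and Pfn1, the actin-binding protein profilin, from 6612, 6852 and 6813 CPM to 5140, 5086 and 5297 CPM (-0.39 ± 0.04, adjusted p = 0.000521). Capg, a capping protein gene, rose from 481, 395 and 562 CPM to 733, 683 and 703 CPM (0.57 ± 0.08, adjusted p = 0.00279).

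Of 30 genes of the integrated stress response and serine synthesis 5 rose and 1 fell, with a median of 0.13, and without mouse 1, 2 and 3 the rises were 1, 1 and 3. Atf3, a stress-induced factor, rose from 10.99, 12.2 and 12.7 CPM to 23.5, 20.7 and 23.3 CPM (0.91 ± 0.14, adjusted p = 0.00384). Sesn2, also in the p53 list, rose from 9.25 to 9.84 CPM to 13.7 to 18.6 CPM (0.74 ± 0.15, adjusted p = 0.0163, and 0.111, 0.0717 and 0.058 without mouse 1, 2 and 3). Of 33 genes of oxidative stress defence 5 rose and 4 fell, with a median of -0.05 (0.02 under cyclic loess and 0.01 without mouse 2), and 3, 2 and 4 rose and 1, 1 and 5 fell without mouse 1, 2 and 3. The peroxidases Prdx2 (195, 200 and 226 CPM to 269, 267 and 296 CPM; 0.42 ± 0.06, adjusted p = 0.00267) and Prdx4 (115, 116 and 135 CPM to 184, 175 and 175 CPM; 0.55 ± 0.08, adjusted p = 0.00289) rose, and thioredoxin, Txn1, fell from 782, 837 and 860 CPM to 626, 629 and 671 CPM (-0.36 ± 0.05, adjusted p = 0.00253). Of 32 genes of autophagy and the lysosome 4 rose and 2 fell, and 3, 2 and 3 rose and 0, 1 and 0 fell without mouse 1, 2 and 3, and 0 fell without the term for mouse. The main shares were 12.5% and 6.25%, against 6.64% and 4.73% of all genes tested. Ctsl, cathepsin L, rose from 1.08, 2.24 and 2.84 CPM to 10.0, 9.84 and 9.34 CPM (2.31 ± 0.30, adjusted p = 0.00198), and Ctss, cathepsin S, from 45.9, 45.9 and 53.8 CPM to 74.1, 74.3 and 75.5 CPM (0.62 ± 0.09, adjusted p = 0.00283).

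Over the called genes, the 3 mice moved alike in direction and differed in size. The median log2 difference of the 984 genes called higher was 0.76 in mouse 1, 0.83 in mouse 2 and 0.67 in mouse 3, and that of the 702 called lower was -0.38, -0.40 and -0.32. The shared direction and these medians come from genes chosen for their change in the same mice and are a description. The untreated library of mouse 1 stood apart from the other untreated libraries on the second principal component (20.2% of the variance), at 44.3 against -32.8 and -21.9, and all DCA libraries lay between -3.14 and 12.5.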

How the data were processed

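The authors deposited a table of raw read counts per gene, whole numbers with no normalization, for 56748 genes. Per the submitters' processing notes, the tools included edgeR 3.36.0, STAR 2.7.10a and fastp 0.23.2, on build GRCm39. The counter, its annotation and use of strand are unknown here, so reads shared by overlapping or antisense genes cannot be told apart. A second deposited table holds the authors' comparison, with log2 fold changes, p-values and a gene length per the file headers, and was used for symbols only (14642 genes, with 37505 more from a GRCm38 list). There were 0 unmapped columns.

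The 6 libraries' counts entered the quasi-likelihood test of edgeR 4.0.16 under R 4.3.3 (TMM factors, filterByExpr by group, a term per mouse, Benjamini-Hochberg adjustment over 14826 genes, threshold 0.05); every adjusted p is from this test unless another tool is named. Standard errors were taken from the log2 fold change and the F statistic of each gene. CPM are TMM-scaled, and reads carried no molecular identifiers. Library pairs within a group differed beyond sampling noise (chi-square per degree of freedom 10.8 to 20.5). The pairing comes from the design, in which 1 mouse gave both arms; deviations from the group means correlated at 0.0442 to 0.0796 within mice and -0.0531 to -0.000591 between mice. The test was checked on simulated data with log2 fold changes of at least 1 in size. Most calls here are smaller, and such changes were not simulated.

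Genes named were the 10 largest rises and falls among called genes (mean log2 CPM of at least 3, same sign in 3 mice, established symbol), up to 2 risers and 2 fallers of each of 32 lists by adjusted p, a fixed set, and further members as needed to describe a list. The comparison, lists and rule were chosen with earlier results of these data known; lists were described and not tested. Alternatives were no term per mouse, RLE factors, limma-voom and cyclic loess (limma 3.58.1), DESeq2 1.42.0, other filters on low counts, mitochondrial genes left out, a minimum fold, and each mouse left out. Promoter windows came from RefSeq (GRCm38.p6) by symbol, found for 10029 tested genes. Some results on single genes are not reported here.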

Additional observations from a re-analysis of the deposited data

How the results depend on the processing

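Beside the 1686 calls (984 higher, 702 lower), 1464 were shared by the 1564 calls (896 higher, 668 lower) of the fit with no replicate block; among the genes named above, the block decided only the calls for which a value without the term for mouse is given. A minimum absolute log2 fold change of 1 left 432 calls (360 higher, 72 lower). Leaving out a mouse gave 434 to 1230 calls, 285 to 682 higher and 149 to 548 lower. RLE factors, limma-voom, limma with TMM, cyclic loess, DESeq2, mitochondrial genes left out and the other filters on low counts gave 1496 to 2335 calls, within 1.5 times of the main count, and in none of these alternatives did a called gene change sign. Signs that turned were those of uncalled genes: with a mouse left out, Pdk1 ran from -0.108 to 0.129, Slc2a1 from -0.112 to 0.125, Hk2 from -0.073 to 0.029, Trp53 from -0.087 to 0.024 and Cd3e from -0.216 to 0.051. Under cyclic loess, Slc2a1 was at 0.045, Hk2 at 0.037, Ldha at 0.040, Gzmb at 0.021, Trp53 at 0.043 and Cd3e at 0.001. Under cyclic loess the median of the nuclear-encoded respiratory chain was -0.122 in place of -0.194, and that of the mitochondrially encoded chain -0.067 in place of -0.015. The cause was not tested. With a term per mouse, the p-values of the main fit weigh the DCA change against how far that change differed between 3 animals. That spread is estimated with help from all genes tested.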

Other observations

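Gene families other than the lists above also held called members. They were picked after their values were seen, so their counts are descriptions, and Ifi208 is in the interferon list too. Of 52 replication-dependent histone genes, which are made in S phase, 0 rose and 20 fell, with a median log2 fold change of -0.63; H3c3 (-1.14) and H1f1 (-0.97) were among the falls, and 8, 9 and 7 fell without mouse 1, 2 and 3. The adjusted p of H3c3 was then 0.0744, 0.0699 and 0.087, and that of H1f1 was 0.0575 without mouse 2. Of 9 p200 genes 4 fell, Ifi208 (-1.83), Ifi214 (-1.22), Ifi206 (-1.02) and Ifi209 (-0.72), and 1 was called higher, Ifi211, at 0, 0 and 0.266 CPM without and 0.540, 0.730 and 1.35 CPM with DCA. That call was lost without the term for mouse (adjusted p = 0.0641) and without mouse 1 (0.0798) or 2 (0.162), and DESeq2 gave it no adjusted p. The neighbouring genes of this family are closely related, so reads may have been split between them.

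Of 10 genes of MHC class II and its loading 7 rose, with a median of 0.48; 4, 3 and 5 rose without mouse 1, 2 and 3, and 5 without the term for mouse. H2-Ob went from 5.70, 5.56 and 6.38 CPM to 21.6, 25.4 and 21.4 CPM, H2-Eb1 from 1.36, 0.552 and 1.57 CPM to 4.76, 5.84 and 7.93 CPM and Cd74 from 3.97, 1.52 and 2.66 CPM to 9.18, 7.72 and 10.9 CPM. The B cell genes Ighd (1.71 to 1.81 CPM to 3.29 to 4.79 CPM) and Cd79b (24.1 to 27.2 CPM to 32.3 to 38.1 CPM) were called higher as well, but not without mouse 1, 2 or 3 (adjusted p = 0.092, 0.18 and 0.0766 for Ighd, and 0.0772, 0.0964 and 0.0722 for Cd79b), while Ms4a1 had at most 1 count in any library; the part of other cells in these rises was not tested. Of 15 glutathione S-transferase genes 5 rose, with a median of 0.50, among them Gstt3 (1.68) and Gstm1 (1.64), and 2 rose without mouse 2. The Gstm1 call was lost without mouse 1 (adjusted p = 0.108) and without mouse 2 (0.205). Of 42 genes of cilium transport 10 rose and 0 fell, with a median of 0.40, among them Bbs7 (2.11) and Wdr35 (1.69), and 7, 4 and 6 rose without mouse 1, 2 and 3. Of 33 genes of the COPI coat and of entry into the endoplasmic reticulum 1 rose, Copz2 (1.66), and 15 fell, with a median of -0.26, and 5, 4 and 13 fell without mouse 1, 2 and 3.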
